A study of Mus musculus with 4 samples.

Results

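Mitotic vimentin-high tumour cells were cells of mouse pancreatic ductal adenocarcinoma (PDAC) that carried the RNA of dividing cells together with that of a mesenchymal state. They were chosen from single-cell RNA counts by a rule on 9 genes. A cell barcode was a member if it held at least 5000 UMIs (unique molecular identifiers, one per captured RNA molecule) with at most 20% of them mitochondrial. It also needed at least 20 UMIs of Vim (vimentin, an intermediate filament of mesenchymal cells) per 10000 UMIs and at least 1 UMI of Cdkn2a (the locus of a cell-cycle inhibitor). Immune cells were kept out by a sum of Ptprc and Laptm5 under 2 per 10000, and keratin-rich tumour cells by Krt19 under 10 per 10000. The mitotic criterion was a sum of Top2a, Cenpf, Ube2c and Birc5 of at least 3 per 10000. The rule found 5122 members among 56375 barcodes. The 14474 barcodes that met every criterion except the mitotic one are called the other vimentin-high cells.

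The study asked how paricalcitol, a vitamin D receptor agonist, and hydroxychloroquine, which blocks lysosomal acidification and autophagy, act on PDAC given with or without gemcitabine, a nucleoside analogue that enters DNA. Dissociated tumours were sequenced by droplet single-cell RNA-seq in 4 libraries, 1 per treatment, each made from tissue pooled from 3 animals. The libraries came from mice given gemcitabine, paricalcitol and hydroxychloroquine (GPH), gemcitabine alone (G), paricalcitol and hydroxychloroquine (PH), or PBS (control). The labels give gemcitabine at 60 mg/kg in the GPH library, and their text for that library breaks off, so its group was taken from its title. The tumour model, strain, sex and age of the mice are not given in the sources used here. With 1 pooled library per treatment, no difference between treatments could be tested against the spread between animals, and no p-value is given. Intervals below are 95% intervals for counting error only, and a treatment cannot be told apart from its library.

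Cells enter mitosis when cyclin B activates the kinase Cdk1. The chromosomes are then compacted by condensins and topoisomerase II and held at their kinetochores by spindle microtubules. The spindle checkpoint delays their separation, which begins once the anaphase-promoting complex marks cyclin B and securin for destruction. Genes for this machinery are switched on together late in the cell cycle. Many of their promoters hold CCAAT boxes, bound by NF-Y, and a CHR element, bound by the DREAM and MuvB-FoxM1 complexes. Gemcitabine acts earlier in the cycle, during DNA synthesis.

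The promoters of the 4 genes that made the mitotic criterion, and of Ccnb1 (cyclin B1) and Plk1 (polo-like kinase), are printed because they show the shared sequence elements of the genes that define these cells. Each window runs from 200 bases before to 30 bases after the RefSeq start in GRCm38.p6, 230 bases, 5′ to 3′ on the gene's strand. Capitals mark CHR matches (TTTGAA or TTTAAA) and CCAAT boxes on either strand.
Top2a: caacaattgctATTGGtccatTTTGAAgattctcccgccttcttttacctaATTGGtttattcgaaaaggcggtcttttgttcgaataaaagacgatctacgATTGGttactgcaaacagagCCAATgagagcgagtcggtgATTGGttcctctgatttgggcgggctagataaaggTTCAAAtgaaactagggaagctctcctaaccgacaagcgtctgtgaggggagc
Cenpf: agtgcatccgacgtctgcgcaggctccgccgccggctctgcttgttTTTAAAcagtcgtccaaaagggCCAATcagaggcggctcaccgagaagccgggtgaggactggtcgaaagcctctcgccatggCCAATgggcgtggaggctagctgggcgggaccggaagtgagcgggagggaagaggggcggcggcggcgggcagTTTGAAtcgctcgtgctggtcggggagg
Ube2c: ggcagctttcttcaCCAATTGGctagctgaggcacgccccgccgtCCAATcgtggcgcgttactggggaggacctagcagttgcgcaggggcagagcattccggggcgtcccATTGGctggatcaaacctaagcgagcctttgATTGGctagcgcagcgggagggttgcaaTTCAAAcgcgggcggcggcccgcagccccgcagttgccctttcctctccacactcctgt
Birc5: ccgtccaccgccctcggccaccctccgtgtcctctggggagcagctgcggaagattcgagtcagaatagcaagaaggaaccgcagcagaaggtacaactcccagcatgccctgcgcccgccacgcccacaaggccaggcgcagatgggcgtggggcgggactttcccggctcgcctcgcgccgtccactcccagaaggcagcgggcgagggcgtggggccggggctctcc
Ccnb1: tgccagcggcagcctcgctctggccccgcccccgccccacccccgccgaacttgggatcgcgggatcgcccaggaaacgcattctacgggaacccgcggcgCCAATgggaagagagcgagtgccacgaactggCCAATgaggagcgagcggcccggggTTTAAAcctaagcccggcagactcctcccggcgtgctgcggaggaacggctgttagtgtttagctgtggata
Plk1: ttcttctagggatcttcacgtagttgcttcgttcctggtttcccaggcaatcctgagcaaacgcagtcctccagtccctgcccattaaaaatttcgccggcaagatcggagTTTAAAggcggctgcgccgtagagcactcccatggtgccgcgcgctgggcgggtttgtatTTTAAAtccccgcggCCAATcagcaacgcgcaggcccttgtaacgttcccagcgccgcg

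The windows lie at chr11:99024160-99024389, minus strand for Top2a, chr1:189688057-189688286, minus strand for Cenpf and chr2:164769729-164769958, plus strand for Ube2c. Those of the other three are at chr11:117849037-117849266, plus strand for Birc5, chr13:100786457-100786686, minus strand for Ccnb1 and chr7:122159235-122159464, plus strand for Plk1. Top2a held 2 CHR matches and 5 CCAAT boxes, with the CHR match nearest the start 23 bases before it. Cenpf held 2 of each, Ube2c held 1 CHR match and 5 CCAAT boxes, Ccnb1 held 1 and 2, and Plk1 held 2 and 1. No match to either was in the Birc5 window. The CHR letters were in the windows of 58.2% of the 67 genes with a RefSeq promoter among 82 kinase, checkpoint, kinetochore, spindle and cytokinesis genes, against 24.35% of all 27025 promoters. CCAAT was in 68.7% of the 67, against 35.2% of all, and both elements were in 47.8%, against 8.10% of all. DNA replication genes held CCAAT in 68% and CHR in 28% of 25 matched promoters, and spindle motor and microtubule genes held CHR in 84.2% of 19. A match of letters is a description and not evidence of binding.

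The libraries held 7918 (GPH), 16748 (G), 18589 (PH) and 13120 (control) barcodes and between 143298547 and 190110092 UMIs. The members gave 5177191 UMIs in GPH, 12565656 in G, 56910975 in PH and 50800255 in control, so values for GPH are the least precise. Between 17 and 79 barcodes were shared by any pair of libraries, and no member was among them. The libraries stood apart in Y-linked RNA. Kdm5d, Uty and Eif2s3y summed to 6.18 and 6.92 CPM (a share of all UMIs, in counts per 1000000) in GPH and G members, against 0.281 in PH and 0.118 in control members, and Xist was found in 0.637% of GPH, 12.1% of G, 3.95% of PH and 4.66% of control members. The part of animal sex in the differences below was not tested. Doublets were not removed. Leaving out the barcodes with the highest doublet scores would have taken 0.637% of GPH, 7.99% of G, 24.55% of PH and 17.68% of control members.

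The markers went with the label for division. Another 12 mitosis genes, outside the rule, were read as a description. The rule's cut on genes of the same machinery fixed the direction of this contrast. Their sum was 1303 CPM in GPH, 1097 in G, 1068 in PH and 948 in control members, against 36.1 in GPH, 67.5 in G, 63.2 in PH and 57.3 in control other vimentin-high cells. Mki67, the protein that coats mitotic chromosomes, was at 167 CPM in GPH, 126 in G, 155 in PH and 105 in control members. The mesenchymal part of the label rested on Vim, which the rule required. Vim stood at 4319 CPM in GPH, 3993 in G, 4709 in PH and 4038 in control, close to its level in the other vimentin-high cells, where it was at 4472 in GPH, 4037 in G, 4581 in PH and 4111 in control. A list of mesenchymal genes without Vim had median log2 differences, members minus those cells, of −0.26 in GPH, −0.38 in G, −0.40 in PH and −0.37 in control. Of it, S100a4, a calcium-binding protein of motile cells, was at 3991 CPM in GPH, 5205 in G, 6039 in PH and 6279.6 in control members, and the transcription factor Zeb1 at 50.8 CPM in GPH, 38.1 in G, 37.4 in PH and 29.3 in control. The origin of the cells rested on Cdkn2a and low Krt19, both set by the rule, since most ductal markers were low. Epcam was at 1.51 CPM or below and Krt7 at 1.14 CPM or below, while the simple keratins Krt8 and Krt18 were present at 447 to 677 and at 515 to 878 CPM.

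Markers of other cells were low, with 1 exception. The 7 fibroblast markers summed to 548 CPM in GPH, 503 in G, 306 in PH and 448 in control members, of which Col3a1 made up 365 in GPH, 336 in G, 200.4 in PH and 246 in control. Pdgfra, the receptor that defines fibroblasts, did not pass 0.773 CPM in any library. The 6 macrophage markers summed to 1.55 CPM in GPH, 75.9 in G, 32.2 in PH and 77.9 in control. The 6 T cell markers summed to 34.4 CPM in GPH, 38.4 in G, 19.2 in PH and 16.5 in control, and in GPH nearly all of it was Cd3e at 32.6 CPM, with Cd3d and Cd3g at 0. The NK markers were at 0 in GPH, where the floor of 3 counts is 0.579 CPM, and at no more than 19.5 CPM elsewhere. The B cell, pericyte, acinar and erythroid lists each summed to 5.77 CPM or less, and the endothelial list to between 17.96 and 35.02 CPM.

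Cells that met the mitotic criterion were scarcest in GPH and most frequent in G. Members made up 157 of 1339 vimentin-high cells in GPH, 538 of 1460 in G, 2583 of 9822 in PH and 1844 of 6975 in control. As shares this was 11.7% in GPH (exact binomial interval 10.05 to 13.6), 36.8% in G (34.4 to 39.4), 26.3% in PH (25.4 to 27.2) and 26.4% in control (25.4 to 27.5). PH and control lay within each other's counting intervals, whereas GPH was below and G above both. Depth differed between the libraries, so each cell was also thinned to 5000 UMIs and classed again, which gave 12.998% in GPH, 37.3% in G, 26.5% in PH and 26.96% in control. Of all barcodes that passed the depth and mitochondrial limits, members were 4.25% in GPH, 7.56% in G, 21.98% in PH and 21.4% in control, since vimentin-high cells as a whole were 36.3% in GPH, 20.5% in G, 83.6% in PH and 80.9% in control of them. None of these shares has a replicate.

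**Figure D1:**
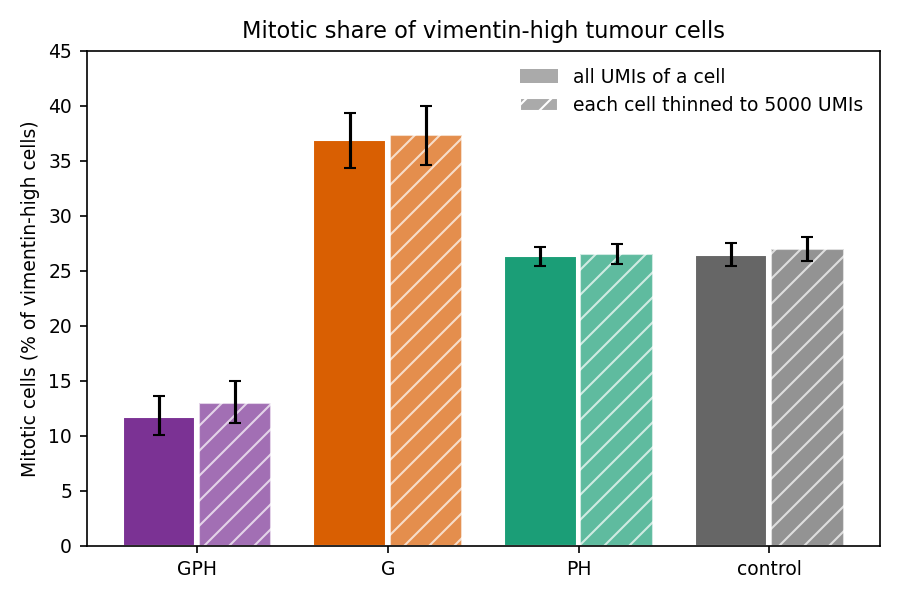
Share of vimentin-high tumour cells that met the mitotic criterion (y axis, percent) in the GPH, G, PH and control libraries, as deposited and after thinning each cell to 5000 UMIs, with exact 95% binomial intervals for counting error. GPH stands lowest at 11.7% and G highest at 36.8%, with PH and control at 26.3% and 26.4%.

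The cut was not an edge between separate populations in every library. Cells just inside it, with a sum of 3 to 4 per 10000, numbered 10 in GPH, 54 in G, 285 in PH and 183 in control. Those just outside, from 2 to 3, numbered 25 in GPH, 54 in G, 416 in PH and 304 in control. Among the other vimentin-high cells, 64.6% in GPH, 61.8% in G, 58.9% in PH and 54.2% in control had no UMI of the 4 genes at all. The members' own median sum was 15.2 per 10000 in GPH, 14.2 in G, 11.8 in PH and 13.1 in control, and all 4 genes were detected in 108 in GPH, 363 in G, 1689 in PH and 1263 in control members. The rule fixed these values, which are given as a description.

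Top2a (topoisomerase II alpha, which untangles sister chromatids) was at 724 CPM in GPH, 525 in G, 502 in PH and 512 in control members. Ube2c, the ubiquitin-conjugating enzyme of the anaphase-promoting complex, was at 630 CPM in GPH, 786 in G, 534 in PH and 703 in control. Birc5 (survivin, of the chromosomal passenger complex) was at 175 CPM in GPH, 253 in G, 244 in PH and 245 in control, and Cenpf, a kinetochore protein, at 282 CPM in GPH, 269 in G, 297 in PH and 196 in control. GPH members thus carried the most Top2a and the least Birc5. Their levels in the other vimentin-high cells did not pass 29.9 CPM for any of the 4 genes.

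Members held more RNA than the other vimentin-high cells. Their median was 26967 UMIs in GPH, 18911 in G, 17615 in PH and 21597 in control, against 15327.5 in GPH, 11278.5 in G, 10512 in PH and 12016 in control other cells, which is 1.68 to 1.80 times as many. They also expressed more kinds of genes at equal depth. After thinning to 5000 UMIs, the median number of genes was 1733 in GPH, 1541 in G, 1601 in PH and 1605 in control members, against 1634 in GPH, 1486.5 in G, 1485 in PH and 1527 in control other cells. The median mitochondrial share was 5.77% in GPH, 5.00% in G, 5.28% in PH and 3.69% in control members.

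Beyond the 4 rule genes, the members held more RNA of many late cell-cycle genes. Of 4063 genes measured in every library (at least 20 CPM in members or other cells and at least 20 UMIs over both), 286 (7.04%) were at least 1.5-fold higher in members in all 4 libraries and 92 (2.26%) were at least 1.5-fold lower in all 4. The choice of members fixed this contrast, so its counts describe the cells and support nothing. Hmmr, a spindle-associated receptor for hyaluronan, was at 137 CPM in GPH, 123 in G, 96.2 in PH and 95.8 in control members, against 0.592 CPM in GPH, 1.95 in G, 1.76 in PH and 1.88 in control other cells. Ccnb1, the cyclin that triggers mitosis, was at 106 CPM in GPH, 83.8 in G, 82.8 in PH and 71.2 in control members, against 1.32 CPM in GPH, 2.84 in G, 2.50 in PH and 2.10 in control other cells. The further genes that headed the ranking were Nusap1 and Cenpe (spindle and kinetochore), Aurkb (the passenger complex kinase), Ccna2 (cyclin A2), Pimreg, Mki67 and the replication histones Hist1h2ap and Hist1h2ae.

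The genes that were lower in members in all 4 libraries were led by matrix and stress genes. Dcn, a collagen-binding proteoglycan, was at 17.8 CPM in GPH, 33.9 in G, 40.3 in PH and 95.3 in control members, against 196 CPM in GPH, 185 in G, 102 in PH and 238 in control other cells. Dpt (dermatopontin, a matrix protein) was at 81.3 CPM in GPH, 31.5 in G, 35.4 in PH and 44.5 in control members, against 375 CPM in GPH, 139 in G, 83.7 in PH and 111 in control other cells. Immune barcodes held Dcn at 1.22 CPM in GPH, 17.4 in G, 94.6 in PH and 158 in control. They held Dpt at 9.76 CPM in GPH, 11.7 in G, 47.3 in PH and 51.5 in control. The part of free RNA in the levels of both genes was not tested. Hmox1, the haem-degrading stress enzyme, was at 124 CPM in GPH, 37.5 in G, 29.6 in PH and 52.9 in control members, against 666 CPM in GPH, 213 in G, 73.1 in PH and 123 in control other cells. Fibronectin (Fn1), ceruloplasmin (Cp), the nuclear RNA Malat1, Smim1, Edil3, Cebpd and Mgst1 completed the ranking.

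**Figure D2:**
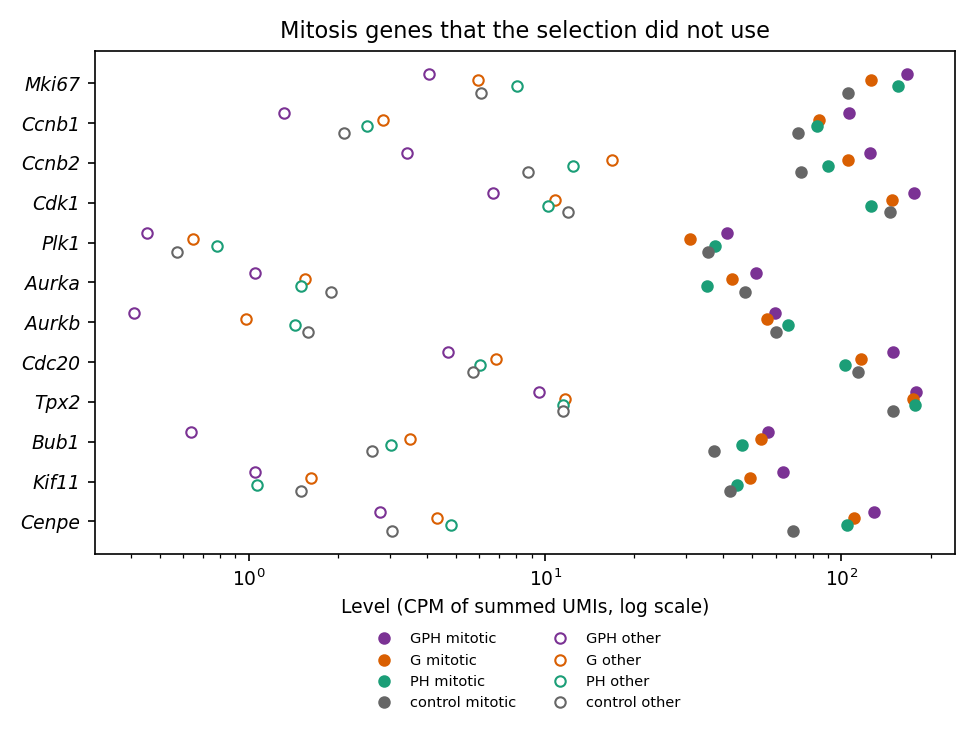
Levels of mitosis genes (CPM, log axis) in mitotic vimentin-high cells and in the other vimentin-high cells of the GPH, G, PH and control libraries. Ccnb1, for example, was at 106 CPM in GPH mitotic cells, against 1.32 CPM in the other GPH cells.

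Within the lists of cell-cycle genes the excess over the other vimentin-high cells was largest for the machinery of mitosis and smaller for that of DNA synthesis. The median log2 difference, members minus other cells, of the mitotic kinases and cyclins was 4.96 in GPH, 3.87 in G, 4.44 in PH and 4.29 in control, against 0.08 in GPH, 0.06 in G, 0.11 in PH and 0.04 in control over all measured genes. Spindle motors and microtubule proteins had medians of 4.92 in GPH, 4.16 in G, 3.98 in PH and 3.98 in control, and kinetochore genes of 3.91 in GPH, 2.68 in G, 2.60 in PH and 2.96 in control. DNA replication genes had medians of 2.27 in GPH, 1.58 in G, 1.50 in PH and 1.54 in control. The subunits of the anaphase-promoting complex and exit genes, most of them expressed throughout the cycle, had medians of 0.44 in GPH, 0.51 in G, 0.51 in PH and 0.38 in control. The p53 targets, genes of the cell-cycle arrest response, had medians of −0.14 in GPH, −0.36 in G, −0.15 in PH and −0.11 in control.

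For the kinases and cyclins, spindle motors, kinetochore and DNA replication genes, the larger differences in GPH went with lower levels in the other GPH cells. Kinetochore genes summed to 168 CPM in GPH, 222 in G, 218 in PH and 231 in control other cells. DNA replication genes summed to 442 CPM in GPH, 643 in G, 587 in PH and 585 in control other cells. The kinases and cyclins summed to 42.05 CPM in GPH, 68.8 in G, 63.5 in PH and 61.4 in control other cells, and the spindle motors to 103 CPM in GPH, 218 in G, 203 in PH and 189.7 in control other cells. The spindle checkpoint list was not lowest there, at 135 CPM in GPH, 124 in G, 109 in PH and 128 in control other cells. Among members the sums were 811 CPM in GPH, 693 in G, 669 in PH and 646 in control for the kinases and cyclins and 1747 CPM in GPH, 1704 in G, 1647 in PH and 1513 in control for the spindle motors. For these 2 lists the levels within members differed less between libraries than the frequency of members did. The rule's cut on genes of the same machinery constrained the levels within members and left their frequency free to vary. This contrast therefore cannot decide whether members were equally mitotic in every library.

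The members were graded and not uniform. With the summed criterion genes divided at 6 and 12 per 10000, the top class held 95 members in GPH, 306 in G, 1271 in PH and 977 in control. The kinases and cyclins stood at 337 CPM in GPH, 266 in G, 268 in PH and 238 in control cells of the lowest class (3 to 6), and at 955 in GPH, 871 in G, 965 in PH and 934 in control cells of the top class. DNA replication genes followed another course. They peaked in the middle class (6 to 12) in every library, at 1935 CPM in GPH, 1965 in G, 1822 in PH and 1824 in control, and were at 1577 in GPH, 1414 in G, 1431 in PH and 1519.7 in control in the top class. The 67 replication-dependent histone genes, whose transcripts belong to S phase, peaked in the same middle class in GPH (1139 CPM), G (2513 CPM) and PH (2873 CPM), while control held 2138 CPM there and 2177 CPM in the top class. The other vimentin-high cells with a sum of 0 still held 394 CPM of replication genes in GPH, 452 in G, 429 in PH and 426 in control.

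**Figure D3:**
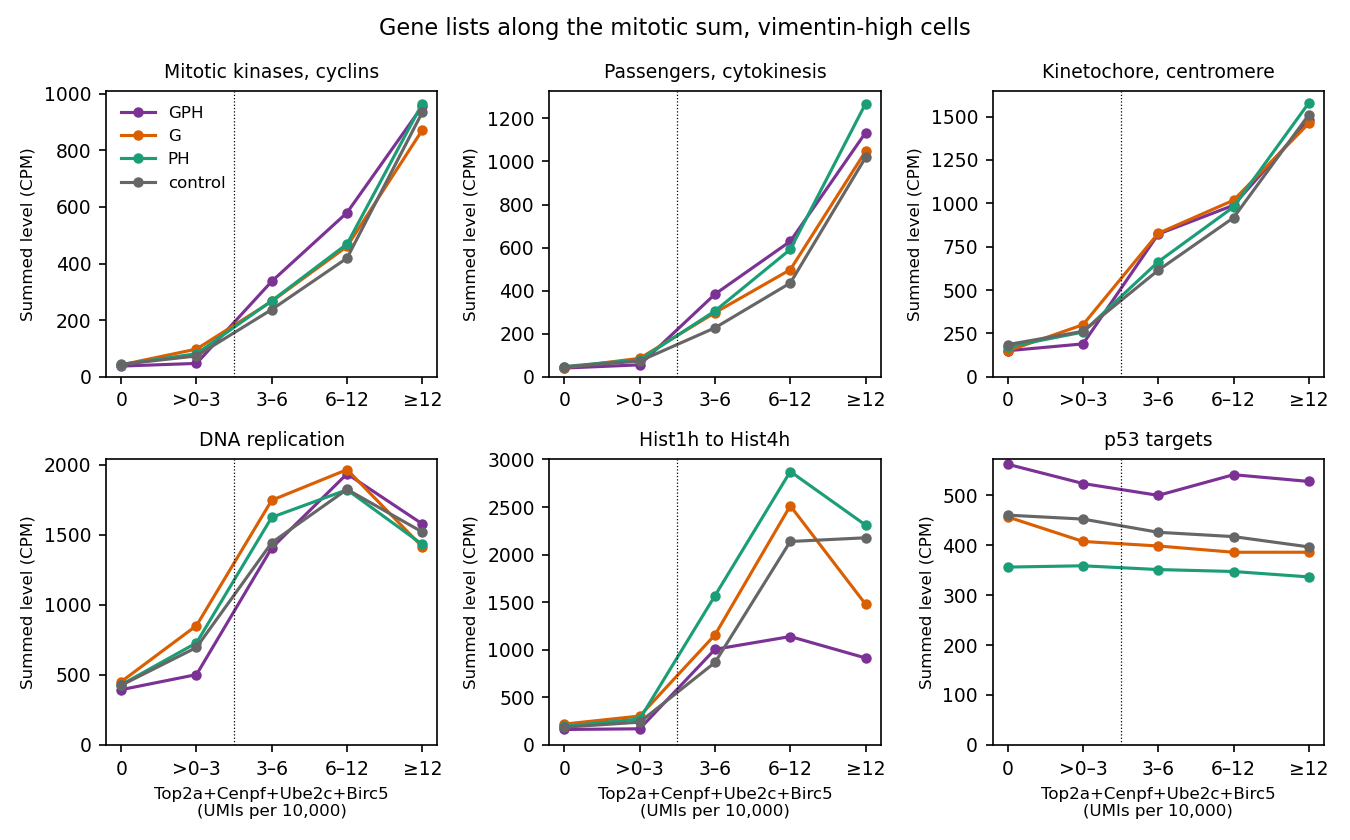
Summed levels (CPM) of gene lists across classes of the mitotic sum per 10000 UMIs (x axis, from 0 to 12 and over) for the GPH, G, PH and control libraries. Kinases and cyclins climb to 871 to 965 CPM in the top class, whereas DNA replication genes peak between 6 and 12 per 10000 in all 4 libraries.

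Histone RNA differed more between libraries than any other cell-cycle list summed here. It summed to 966 CPM in GPH, 1649 in G, 2268 in PH and 1849 in control members. Hist1h2ap, a core histone H2A gene, was at 388 CPM in GPH, 906 in G, 1199.7 in PH and 786 in control members, and Hist1h1b, a linker histone, at 67.8 CPM in GPH, 50.9 in G, 86.7 in PH and 140.0 in control. Hist1h2ap was 3.09-fold lower (2.96 to 3.23) in GPH than in PH members, and Hist1h1b was 2.75-fold lower (2.54 to 2.99) in G than in control members. Most replication histone transcripts lack a poly(A) tail and near-identical copies share reads, so these counts are uncertain for single genes.

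Members were unevenly spread over 3 states of the vimentin-high cells, read by a UMI of either gene of a pair after thinning to 5000 UMIs. Cells with Dcn or Dpt were mitotic in 6.23% in GPH, 18.1% in G, 16.03% in PH and 16.3% in control, against 25.0% in GPH, 46.6% in G, 30.8% in PH and 34.4% in control among cells without them. Cells with Slc7a11 (a cystine importer) or Ereg (an EGF receptor ligand) were mitotic in 10.98% in GPH, 25.1% in G, 18.5% in PH and 21.97% in control, against 14.8% in GPH, 41.5% in G, 31.0% in PH and 28.3% in control without. The third pair went the other way. Cells with Slurp1, a secreted Ly6-family protein, or Prl2c2, a placental hormone gene, were mitotic in 19.2% in GPH, 45.9% in G, 31.4% in PH and 33.0% in control, against 12.04% in GPH, 34.6% in G, 25.0% in PH and 24.8% in control without.

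The Dcn or Dpt state was the most common in GPH, at 63.6% of vimentin-high cells, against 33.2% in G, 29.0% in PH and 40.7% in control. The GPH share of mitotic cells was below that of control both inside this state and outside it. Free RNA can place such UMIs in cells that do not express the gene. Immune cells, which should lack Dcn and Dpt, held a UMI of either in 2.70% in GPH, 3.89% in G, 18.1% in PH and 18.9% in control. These cells numbered only 37 in GPH, against 3751 in G, 586 in PH and 523 in control, so the immune shares in GPH are the least certain. They were thinned to 5000 UMIs as well, and their median depths before thinning were 9328 in GPH, 8336 in G, 10375.5 in PH and 9868 in control. For Slc7a11 or Ereg the immune share was 16.2% in GPH, 10.4% in G, 36.2% in PH and 7.46% in control. PH vimentin-high cells held a UMI of that pair in 36.1% at the same thinned depth, no more than PH immune cells. Whether immune cells express either gene was not tested, so free RNA and expression cannot be told apart for this pair in PH. Without thinning, 47.3% of PH members and 54.3% of the other PH cells held one.

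**Figure D4:**
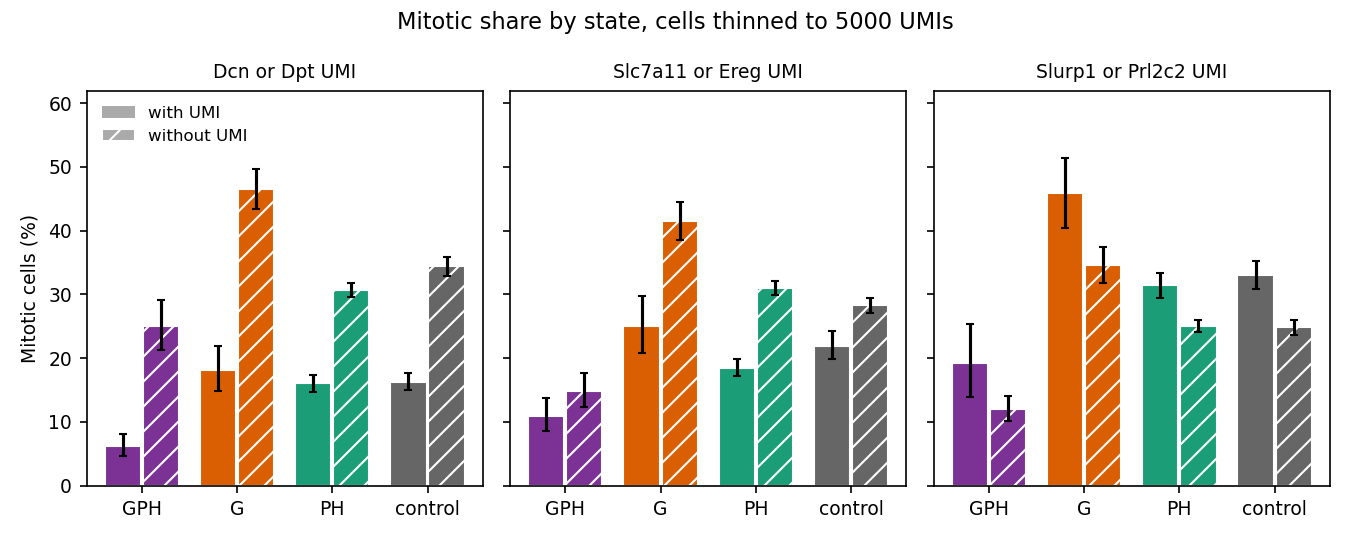
Share of cells that were mitotic (y axis, percent, thinned to 5000 UMIs, exact 95% binomial intervals) among vimentin-high cells with and without a UMI of Dcn or Dpt, Slc7a11 or Ereg, and Slurp1 or Prl2c2, in the GPH, G, PH and control libraries. Cells with Dcn or Dpt lie below those without in all 4 libraries, at 6.23% against 25.0% in GPH.

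GPH members held less cholesterol synthesis RNA and more RNA of the integrated stress response than control members. Of 5200 measured genes, 1411 (27.1%) were at least 1.5-fold higher and 428 (8.23%) at least 1.5-fold lower in GPH. All 12 measured cholesterol synthesis genes were among the lower ones. The median log2 difference of all measured genes was 0.25, so most genes lay above 0 in this comparison. With that median set to 0 the split was 672 higher and 886 lower. Among genes at or over 100 CPM it was 240 higher and 213 lower. The antigen presentation genes did not move as one. Of MHC class I, 5 of 7 measured genes were higher in GPH, with a median of 0.74, and 0.49 once the median of all genes was set to 0. Of MHC class II, 0 of 6 were higher and 1 was lower, with a median of −0.40.

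The sterol genes span the pathway that leads to cholesterol. Fdps, which makes farnesyl pyrophosphate, was at 49.6 CPM in GPH, 157 in G, 298 in PH and 336 in control members, and was 6.77-fold lower (5.99 to 7.69) in GPH than in control. Idi1, the isomerase before it, was at 13.9 CPM in GPH, 67.2 in G, 106 in PH and 99.4 in control members, 7.15-fold lower (5.67 to 9.15) in GPH. Cyp51, the lanosterol demethylase, was at 93.5 CPM in GPH, 223 in G, 377 in PH and 332 in control, 3.55-fold lower (3.24 to 3.89) in GPH. The entry enzyme Hmgcs1 was 3.35-fold lower (2.89 to 3.91) and Msmo1, which removes methyl groups from the sterol ring, was 3.73-fold lower (3.21 to 4.37) in GPH. The pathway's transcription factor Srebf2 was at 34.4 CPM in GPH, 36.5 in G, 56.4 in PH and 67.3 in control members.

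The median log2 difference of the list, GPH minus control, was −1.55 in members, and between −1.81 and −1.18 under every alternative computed. In the other vimentin-high cells it was −1.67, with 10 of 11 measured genes lower beside 9.01% of all 5017 genes measured in those cells. The list was thus low in GPH members and in the other vimentin-high GPH cells alike. G members held intermediate levels. Their median against control was −0.48 with 4 of 12 genes lower, beside 6.28% of all measured genes. That of PH members was −0.09 with 0 of 12 lower, beside 6.63% of all.

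Genes of the integrated stress response were higher in GPH members. The list had a median log2 difference from control of 0.88, with 9 of 13 measured genes higher, beside 27.1% of all measured genes, and 1 lower. Ddit3 (CHOP, a transcription factor induced by translation arrest) was at 129.8 CPM in GPH, 34.5 in G, 20.6 in PH and 42.6 in control members, and Atf4, the pathway's main transcription factor, at 242 CPM in GPH, 107 in G, 114 in PH and 154 in control. Atf5, a related factor, was at 57.6 CPM in GPH, 21.2 in G, 11.1 in PH and 20.6 in control members. The symbol Ddit3 is shared by another annotated gene, and only the first entry of that symbol was read. Nupr1, a stress-induced chromatin protein, was at 362 CPM in GPH, 130.0 in G, 67.6 in PH and 139.9 in control and Atf3 at 322 CPM in GPH, 136 in G, 91.8 in PH and 154 in control. The gene that was lower was Eif4ebp1, a translation inhibitor, at 143 CPM in GPH, 153 in G, 135 in PH and 229 in control. PH members were below control for 5 of 13 of these genes and above it for 2, with a median of −0.43. Of all measured genes, 6.63% were below and 6.93% above.

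Chaperones and degradation factors of the endoplasmic reticulum had a median of 0.53 in GPH against control, where the median of all measured genes was 0.25. In GPH 10 of 22 genes were higher, beside 27.1% of all measured genes, and 0 were lower. Calr (calreticulin) was at 981 CPM in GPH, 705 in G, 551 in PH and 536 in control members. Hspa5 (BiP, the main chaperone of the compartment) was at 957 CPM in GPH, 926 in G, 473 in PH and 659.8 in control, and so was similar in GPH and G. Xbp1, a transcription factor of the unfolded protein response, was at 67.2 CPM in GPH, 41.3 in G, 23.9 in PH and 44.1 in control members. Against PH, the GPH median was 0.66 with 12 of 22 genes higher, beside 20.6% of all measured genes.

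Of the p53 targets, 5 of 8 measured genes were at least 1.5-fold higher in GPH than in control, beside 27.1% of all measured genes. 1 gene was lower, and the median was 1.01. Cdkn1a (p21, which inhibits cyclin-dependent kinases) was at 85.95 CPM in GPH, 72.4 in G, 43.8 in PH and 32.7 in control members, and Mdm2, the ubiquitin ligase that degrades p53, at 31.1 CPM in GPH, 21.6 in G, 15.9 in PH and 13.8 in control. Both were higher in the libraries of gemcitabine-treated tumours, GPH and G, than in PH and control. Fas, a death receptor, was at 32.3 CPM in GPH, 17.9 in G, 4.64 in PH and 9.70 in control. Bax, a pore-forming death protein, went the other way, at 81.7 CPM in GPH, 105 in G, 108 in PH and 131 in control members. The G median against control was −0.31, with 2 of 7 genes higher, beside 3.53% of all, and 1 lower. The PH median was −0.32.

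The genes named by rank as higher in GPH than in control included nuclear RNA, secreted factors and membrane proteins. Neat1, a nuclear non-coding RNA, was at 1696 CPM in GPH, 393 in G, 536 in PH and 222 in control members, 7.62-fold higher (7.41 to 7.84) in GPH. Malat1, which is also retained in the nucleus, was at 20908 CPM in GPH, 6801 in G, 6307 in PH and 11652 in control members. The complement genes C4b and C3 were 8.11-fold and 5.77-fold higher, with C3 at 102 CPM in GPH, 19.8 in G, 12.9 in PH and 17.7 in control members. Il11, a cytokine of the interleukin 6 family, was at 53.7 CPM in GPH, 19.7 in G, 8.42 in PH and 6.54 in control. Lbp (which binds bacterial lipopolysaccharide), Ptn (pleiotrophin, a growth factor), Onecut2 (a transcription factor), Lgr5 (a Wnt-pathway receptor) and Has2 (hyaluronan synthase) were 6.48, 6.001, 5.93, 5.55 and 5.18-fold higher.

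The larger share of nuclear RNA and the shift of the median gene moved with the GPH library, and their part in these differences was not tested. Beside the sterol genes, those lower in GPH were Ptgds (prostaglandin D synthase), Dcn, Lmo1 (a transcriptional cofactor), Tmsb10 (thymosin beta, which binds actin) and Bnip3 (a mitophagy receptor). Tmsb10, one of the most abundant of all, was at 2179 CPM in GPH, 5317 in G, 6178 in PH and 6597 in control members. Dcn was 5.36-fold lower (4.36 to 6.66) in GPH members, while in the other vimentin-high cells it was at 196 CPM in GPH and 238 CPM in control. Immune barcodes held Dcn at 1.22 CPM in GPH and at 158 CPM in control, where members held 95.3 CPM. The part of free RNA in the Dcn difference was not tested.

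Lysosomal and autophagy genes were read because hydroxychloroquine acts on that route. The lysosome list had a median of 0.54 in GPH against control with 9 of 18 genes higher, beside 27.1% of all measured genes, and 0 lower. The autophagy list had a median of 0.39 with 4 of 18 genes higher and 2 lower, a smaller share higher than the 27.1% of all measured genes. Sqstm1 (p62, the receptor that autophagy degrades with its cargo) was at 495 CPM in GPH, 254 in G, 253 in PH and 229 in control members, and Ctsb (cathepsin B) at 269 CPM in GPH, 119 in G, 101 in PH and 111 in control. PH animals received the same inhibitor. The PH lysosome median against control was −0.10 with 1 of 15 genes higher, and its autophagy median −0.06 with 2 of 17 higher and 2 lower. Of all measured genes, 6.93% were higher and 6.63% lower in PH. The vitamin D receptor list had only 4 measured genes in members. Spp1 (osteopontin), a known target of the receptor, was at 2851 CPM in GPH, 1587 in G, 1196 in PH and 1243 in control members.

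Most lists of mitotic genes had medians within 1.5-fold of control in each treatment, and the exception was the spindle checkpoint in GPH. The kinases and cyclins had a median log2 difference from control of 0.25 in GPH, 0.02 in G and 0.09 in PH, with 3 of 12 genes at least 1.5-fold higher in GPH, 0 of 9 in G and 0 of 9 in PH. The GPH median was close to the median of all measured genes, and the GPH count close to the 27.1% of all measured genes that were higher. In G 3.53% and in PH 6.93% of all measured genes were higher. Kinetochore genes had medians of 0.14 in GPH, 0.05 in G and 0.08 in PH, and spindle motors of 0.44 in GPH, 0.29 in G and 0.25 in PH.

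The spindle checkpoint holds back anaphase until every kinetochore is attached. Its genes had medians of 0.60 in GPH, 0.15 in G and 0.25 in PH. In GPH 6 of the 10 measured genes were higher, beside 27.1% of all measured genes. The GPH median was 0.34 with the median of all genes set to 0 and 0.24 without cells holding Dcn or Dpt, both within 1.5-fold. Bub1, a checkpoint kinase, was at 56.6 CPM in GPH, 53.7 in G, 46.02 in PH and 37.2 in control members, and Knl1, the kinetochore scaffold that recruits it, at 55.2 CPM in GPH, 43.3 in G, 54.8 in PH and 35.5 in control. Chromosomal passengers and cytokinesis genes had medians of 0.54 in GPH, 0.23 in G and 0.33 in PH. In GPH 4 of these 10 genes were higher, beside the same 27.1%, and the GPH median was 0.04 without cells holding Dcn or Dpt. Aspm, of the spindle poles, was at 91.2 CPM in GPH, 57.8 in G, 46.1 in PH and 38.8 in control members, Kif20a, a motor of the midzone, at 66.6 CPM in GPH, 37.2 in G, 34.7 in PH and 28.1 in control, and Cit (citron kinase, of the cleavage furrow) at 35.7 CPM in GPH, 18.9 in G, 20.1 in PH and 15.5 in control. Condensins and mitotic chromatin genes had medians of 0.30 in GPH, 0.27 in G and 0.40 in PH. In GPH 4 of 15 were higher, among them the condensin subunits Ncapd2 and Ncapg2, a share close to the 27.1% of all measured genes. Another 2 of 15 were lower, beside 8.23% of all measured genes. Ncapg2 was at 42.1 CPM in GPH, 32.4 in G, 38.6 in PH and 23.1 in control members. The lower genes were H2afx, the histone variant that marks DNA breaks, at 52.2 CPM in GPH, 95.98 in G, 103 in PH and 105 in control members and Hmgb3 at 27.6 CPM in GPH, 47.9 in G, 70.7 in PH and 47.4 in control.

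DNA replication genes had medians against control of 0.23 in GPH, 0.06 in G and 0.02 in PH. The genes that carry gemcitabine into cells and its targets differed little as well, with medians of −0.09 in GPH, −0.07 in G and 0.02 in PH over 8 genes each. Slc29a1, the nucleoside transporter, was at 72.2 CPM in GPH, 57.5 in G, 76.998 in PH and 77.8 in control members, and Rrm1, a ribonucleotide reductase subunit that the drug inhibits, at 59.7 CPM in GPH, 63.03 in G, 70.2 in PH and 48.98 in control. The 1 gene of the list past 1.5-fold was Samhd1, which hydrolyses nucleotide triphosphates, at 140.0 CPM in GPH, 83.2 in G, 83.4 in PH and 80.6 in control members.

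**Figure D5:**
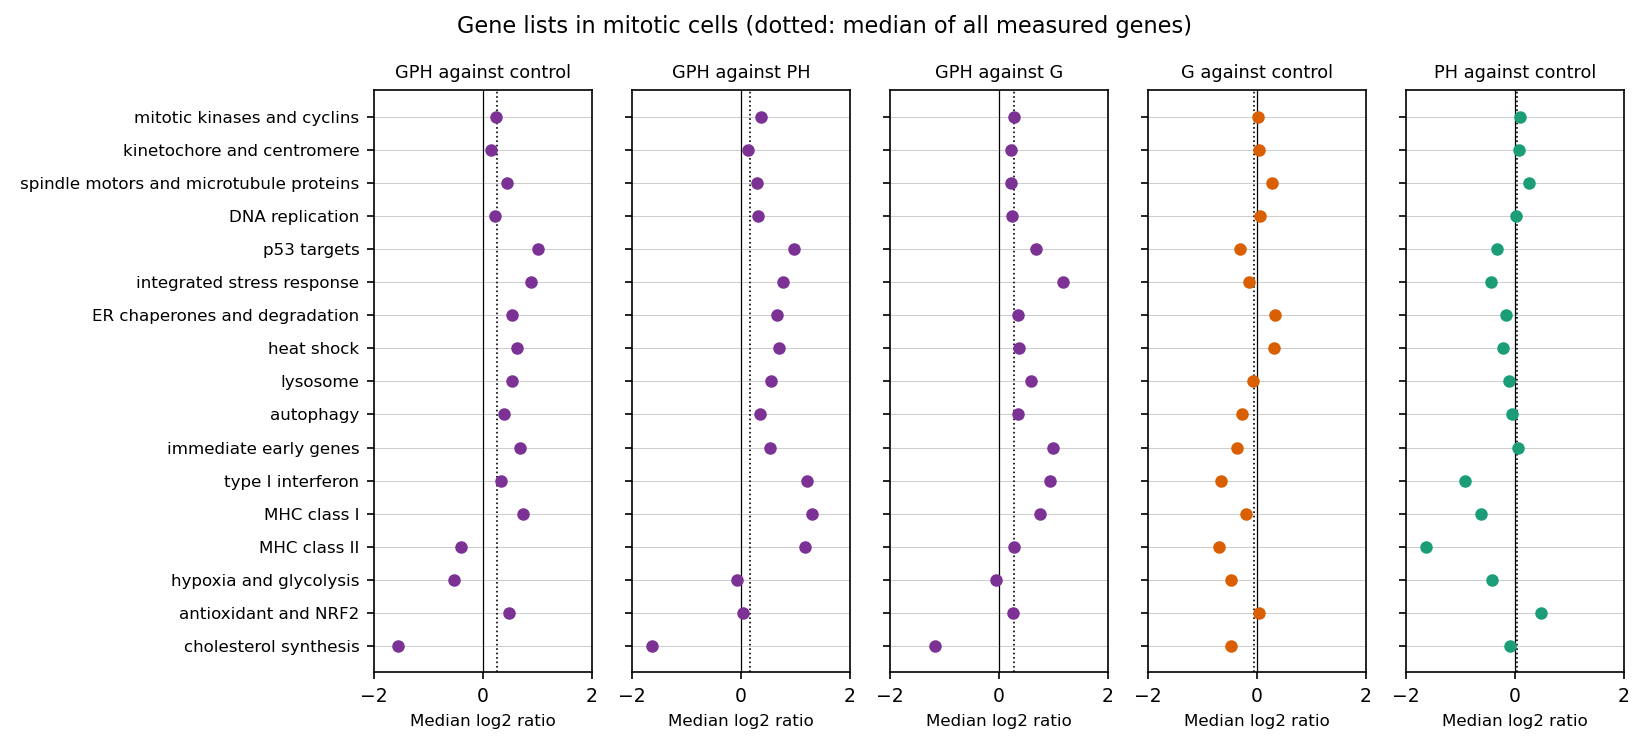
Median log2 difference between treatments over the measured members of each gene list in mitotic vimentin-high cells, for GPH, G and PH against control and for GPH against G and PH, beside the median over all measured genes. Cholesterol synthesis stands at −1.55 for GPH against control, while the mitotic kinases and cyclins stand at 0.25 for GPH, 0.02 for G and 0.09 for PH.

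GPH members set against G members showed what differed between tumours that both received gemcitabine. Of 5133 measured genes, 1256 (24.5%) were at least 1.5-fold higher and 218 (4.25%) lower in GPH, around an all-gene median of 0.28. With that median set to 0 the split was 507 higher and 617 lower. Immediate early genes, transcription factors switched on within minutes of a signal or of tissue handling, had a median of 1.00 with 15 of 20 genes higher and 0 lower. Jun was at 1055 CPM in GPH, 359 in G, 585 in PH and 604 in control members, Klf6 at 427 CPM in GPH, 120.4 in G, 183 in PH and 153 in control and Dusp1, a phosphatase of MAP kinases, at 250.1 CPM in GPH, 83.6 in G, 67.2 in PH and 63.2 in control. Of the integrated stress response genes 7 of 13 were higher, around a median of 1.18, and of the cholesterol synthesis genes 9 of 11 were lower, around one of −1.18.

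The genes named by rank in this comparison included the complement protease C1s1, 7.43-fold higher (6.21 to 8.93) in GPH, the copper carrier Cp, 5.01-fold higher (4.41 to 5.71), and the drug efflux pump gene Abcb1b, 4.05-fold higher (3.59 to 4.57). Abcb1b was at 140.4 CPM in GPH, 34.7 in G, 37.4 in PH and 61.1 in control members, so it was high in GPH and control and low in G and PH. Hes1, a repressor in the Notch pathway, shared that pattern at 342 CPM in GPH, 82.6 in G, 75.8 in PH and 275 in control members, as did Spata7 at 153 CPM in GPH, 39.5 in G, 38.3 in PH and 261 in control. Bloc1s1 showed the reverse at 19.5 CPM in GPH, 83.3 in G, 66.9 in PH and 40.4 in control. Spata7 had the same pattern in the other vimentin-high cells, at 71.5 CPM in GPH, 27.6 in G, 27.2 in PH and 150.1 in control. These patterns join libraries that share no drug regimen, and their source was not tested.

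Against PH members, GPH members were higher in 1071 (20.6%) and lower in 316 (6.07%) of 5205 measured genes, with an all-gene median of 0.18. With that median set to 0 the split was 684 higher and 568 lower. Antigen presentation and interferon genes stood out. All 7 measured MHC class I genes were higher, with a median of 1.30, as were all 6 of MHC class II, with 1.19, and 7 of 8 type I interferon genes, with 1.22. H2-K1, a classical class I chain, was at 824 CPM in GPH, 538 in G, 286 in PH and 489 in control members, and H2-T23, a non-classical one, at 217 CPM in GPH, 61.2 in G, 54.1 in PH and 108 in control. Acta2, smooth muscle actin, was at 136 CPM in GPH, 69.95 in G, 12.6 in PH and 52.05 in control members, 10.7-fold higher (9.67 to 11.9) in GPH. Timp3, an inhibitor of matrix proteases, and Il33, an alarm cytokine, were 7.36 and 5.78-fold higher. The low genes were again led by Idi1, Fdps and Cyp51, and Idh1, an isocitrate dehydrogenase that makes NADPH, was 3.33-fold lower (2.79 to 4.002).

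G members were the closest to control members by the count of genes. Of 4536 measured genes, 160 (3.53%) were at least 1.5-fold higher and 285 (6.28%) lower, around a median of −0.04. The chemokine Cxcl10 was at 106 CPM in GPH, 264 in G, 102 in PH and 80.1 in control members, 3.30-fold higher (3.15 to 3.46) in G than in control, and Ptn was 5.12-fold higher (4.68 to 5.61). Cdkn1a was 2.21-fold higher (2.04 to 2.40) in G. Arhgdib, a signalling regulator typical of blood cells, was 3.39-fold higher (3.05 to 3.76). G members held 35.7 CPM of neutrophil and 75.9 CPM of macrophage markers beside it, against 1.61 and 77.9 CPM in control, and their part was not tested. The lower genes included the early-response genes Ier2 and Socs3, 3.27 and 2.77-fold lower, and Gadd45g, 2.85-fold lower. With each cell's own CPM averaged in place of summed UMIs, 111 genes were higher and 310 lower.

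Among the gene lists, PH members lay furthest below control members for MHC class II, type I interferon and MHC class I genes. Of 4676 measured genes, 324 (6.93%) were at least 1.5-fold higher and 310 (6.63%) lower, around a median of 0.04. All 6 measured MHC class II genes were lower, with a median of −1.63, as were all 6 type I interferon genes, with −0.92, and 4 of 6 of MHC class I, with −0.63. Cd74, the class II invariant chain, was at 501 CPM in GPH, 367 in G, 152 in PH and 485 in control members, 3.19-fold lower (3.11 to 3.27) in PH than in control. H2-Ab1, a class II chain, was at 184 CPM in GPH, 153 in G, 73.8 in PH and 241 in control members. These genes are also strong in macrophages. The macrophage marker Lyz2 was at 0.773 CPM in GPH, 54.2 in G, 14.9 in PH and 38.5 in control members, and the macrophage list summed to 32.2 CPM in PH, against 77.9 CPM in control members. Both were thus lower in PH than in control, as Cd74 was, and their part in the class II difference was not tested.

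The interferon-induced genes Isg15 and Bst2 were 3.33 and 2.96-fold lower in PH than in control members. Isg15 was at 37.9 CPM in GPH, 29.2 in G, 17.9 in PH and 59.6 in control members. Higher in PH were Tnfaip3, a brake on NF-kappaB signalling, at 45.01 CPM in GPH, 19.6 in G, 51.8 in PH and 14.1 in control members, the orphan nuclear receptor Nr4a2, 3.26-fold higher (3.02 to 3.53), and the monocyte chemokine Ccl2, 2.25-fold higher (2.21 to 2.29). The chromatin proteins Hmga2 and Hmga1 were 2.28 and 1.99-fold higher. Of 13 measured antioxidant genes, 6 were higher in PH, with a median of 0.48, beside 6.93% of all measured genes. Gclc, of glutathione synthesis, was at 24.5 CPM in GPH, 12.3 in G, 18.5 in PH and 5.83 in control members. Slc7a11 was at 42.7 CPM in GPH, 14.7 in G, 34.5 in PH and 8.90 in control members. PH immune cells held a UMI of Slc7a11 or Ereg as often as PH vimentin-high cells. That share is for the pair and not for Slc7a11 alone, and whether immune cells express either gene was not tested. The part of free RNA in the Slc7a11 value in PH was not tested either. With each cell's own CPM averaged, 171 genes were higher and 341 lower in PH. With the median of all genes set to 0 there were 269 higher and 357 lower, and without cells holding Dcn or Dpt 276 and 329.

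Glycolysis and hypoxia genes were lower than in control under each treatment. The list had medians of −0.52 in GPH, −0.47 in G and −0.42 in PH, with 7 of 17 genes at least 1.5-fold lower in GPH, 7 of 18 in G and 5 of 17 in PH. Of all measured genes, 8.23% were lower in GPH, 6.28% in G and 6.63% in PH. Aldoa, a glycolytic aldolase, was at 437 CPM in GPH, 454 in G, 443 in PH and 765 in control members. Ankrd37, a hypoxia-induced gene, was at 6.95 CPM in GPH, 13.4 in G, 14.1 in PH and 27.4 in control. The exceptions were in GPH, with Hk2 (hexokinase) at 487 CPM in GPH, 154 in G, 160.4 in PH and 343 in control and the stress-responsive gene Ndrg1 at 199.5 CPM in GPH, 122 in G, 101 in PH and 108 in control. The 3 comparisons share the control library, so a single high control value enters all of them.

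The difference between treatments in members was set against the same difference in the other vimentin-high cells, gene by gene. For GPH against control the members' log2 difference exceeded that of the other cells by 1.961 for Pclaf (a PCNA-binding replication factor), with a counting interval of 1.67 to 2.25, and by 1.49 for Stmn1 (stathmin). Both genes were similar between members and low in the other GPH cells, where Pclaf was at 5.05 CPM, against 26.3 CPM in other control cells. The excess was also 1.38 for Atf5. It was −2.14 for Dcn (−2.44 to −1.84), −1.43 for the chemokine Ccl7 and −1.20 for Hmox1. The part of free RNA in the Dcn value was not tested. Hmox1 was at 124 CPM in GPH and 52.9 CPM in control members, and at 666 CPM in GPH and 123 CPM in control other cells.

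For G against control the excess in members was 0.69 for Lypd2, a Ly6-family gene, and −1.29 for Hmox1, −1.20 for Hilpda (a lipid droplet protein) and −1.13 for Cd74. Cd74 was at 367 CPM in G and 485 CPM in control members, and at 838 CPM in G and 507 CPM in control other cells. The MHC class II list followed it, with a median for G against control of −0.69 in members and 0.26 in the other cells. Macrophage markers summed to 75.9 CPM in G and 77.9 in control members, and to 118 in G and 50.1 in control other cells. Their part in these class II differences was not tested. For PH against control the excess was 0.78 for Col1a1 and −0.74 for Cxcl10. NF-kappaB and chemokine genes had smaller medians against control in members, at 0.82 in GPH, 0.08 in G and 0.32 in PH, than in the other cells, at 1.68 in GPH, 1.09 in G and 1.09 in PH.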

How the data were processed

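The deposited tables held UMI counts per gene and barcode, filtered to cell barcodes by the authors, in 4 libraries. Per the submitters' processing notes they were made with Cell Ranger 6.1 on mm10, while the file headers give 7.0.1. The counts are not normalized. The members and gene lists were chosen with earlier results of these data known.

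UMIs of the members, and of the other vimentin-high cells, were summed per library and divided by their total to give CPM. A gene counted as measured with at least 20 CPM in either group and at least 20 UMIs over both, and as higher or lower past 1.5-fold, by size alone. Ratios have exact conditional binomial 95% intervals and shares have Clopper-Pearson intervals, both for counting error alone. A list's median was given with at least 5 measured genes. Genes named by rank were the 10 at each end, by the interval bound nearer 1, among those at 50 CPM or more; a few of them are not reported here. Scrublet was run in scanpy 1.11.5; its automatic threshold called 7, 0, 1 and 0 barcodes in GPH, G, PH and control and had not worked. Promoter windows came from RefSeq. Python 3.11.15, numpy 2.4.6, scipy 1.17.1 and pandas 2.3.3 were used, and the code was checked on simulated counts. A gene can share reads with overlapping or near-identical genes.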

Additional observations from a re-analysis of the deposited data

Results flagged for a closer look

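For each result below, the GPH library lay on one side of PH and the G library on the other side of control, each by at least 1.5-fold. Adding gemcitabine to paricalcitol and hydroxychloroquine thus went with the opposite direction from gemcitabine alone. With 1 library per treatment the difference between the contrasts was not tested. Values are log2 differences between mitotic cells, GPH minus PH first and G minus control second.

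Positive for GPH minus PH and negative for G minus control were Abcb1b (1.91 and −0.82), Bst2 (0.80 and −0.95), C1s1 (2.50 and −0.90), Gadd45g (0.68 and −1.51), H2-Ab1 (1.32 and −0.66), H2-Eb1 (1.11 and −0.73), Hes1 (2.17 and −1.73), Hypk (0.87 and −1.45) and Isg15 (1.08 and −1.03). So were Nmt1 (1.69 and −2.13), Spata7 (2.0002 and −2.72), Tcim (1.37 and −1.36) and Tuba1c (1.97 and −1.57). The medians of the type I interferon list (1.22 and −0.66) and of the MHC class II list (1.19 and −0.69) had the same signs.

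The reverse held for Bloc1s1 (−1.78 and 1.05), Gstp1 (−1.21 and 0.92), Hmga1 (−1.02 and 0.63) and Nr4a2 (−1.02 and 0.99). In levels, Gstp1, a detoxifying transferase, was at 59.9 CPM in GPH, 174 in G, 139 in PH and 91.97 in control, and Tuba1c, a tubulin gene, at 234 CPM in GPH, 65.3 in G, 59.8 in PH and 194 in control.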

How the results depend on the processing

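No paired analysis was possible because each treatment had 1 library. The order of the mitotic shares, GPH lowest and G highest, held under every alternative computed for them. With a mitotic threshold of 6 per 10000 the shares were 9.48% in GPH, 29.2% in G, 19.3% in PH and 20.1% in control. With a depth minimum of 10000 UMIs they were 45.8% in G, 35.3% in PH and 33.0% in control, and without the highest doublet scores 23.8% in PH and 24.3% in control. The other 19 of 28 alternative shares moved by less than their counting interval. The counts of genes past 1.5-fold depended on the low-level filter. With no minimum they were 7058 for GPH against control, 5607 for G against control, 5953 for PH against control, 6161 for GPH against G and 6582 for GPH against PH. With a minimum of 100 CPM they were 453, 101, 174, 321 and 319 for those comparisons. The other 30 of 40 alternative counts stayed within 1.5 times. No list median that passed 1.5-fold turned its direction. Of 660 alternative list medians 24 no longer passed 1.5-fold and 17 newly did. Of 498 alternative values of named genes, 497 kept their side, and Neat1 in PH against control fell to 0.57 on the log2 scale with each cell's own CPM averaged. With the median of all genes set to 0, the medians of GPH against control for MHC class I (0.49), immediate early (0.42) and heat shock genes (0.38) were under 1.5-fold. Leaving out barcodes with Xist, or the limit on Krt19, was tried after the data were seen and moved no value it was computed for past these limits. Depth limits GPH most, with 157 members.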

Other observations

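Cell-cycle genes outside mitosis also differed by library. Ccnd2, a cyclin of the G1 phase, was at 215 CPM in GPH, 72.2 in G, 84.1 in PH and 97.3 in control mitotic cells, whereas Ccnd1 was at 447 CPM in GPH, 397 in G, 443 in PH and 345 in control. The inhibitor Cdkn2b was at 44.8 CPM in GPH, 34.5 in G, 48.2 in PH and 74.3 in control mitotic cells. Heat shock genes summed to 11109 CPM in GPH, 8867 in G, 7579.7 in PH and 7804 in control mitotic cells. Of 10 measured heat shock genes, 6 were at least 1.5-fold higher in GPH than in control, beside 27.1% of all measured genes. Ccl5, a chemokine of lymphocytes, was at 5.79 CPM in GPH, 64.5 in G, 46.2 in PH and 61.2 in control mitotic cells. Igkc, an immunoglobulin chain of plasma cells, was at 1.54 CPM in GPH, 1.11 in G, 162 in PH and 202 in control mitotic cells.

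Mitotic RNA was also present outside the rule's limits. Among tumour cells with Krt19 at 10 or more per 10000 at the same depth, the share past the mitotic threshold was 10.2% of 1944 in GPH, 15.9% of 1276 in G, 11.6% of 225 in PH and 10.98% of 173 in control. Barcodes that met the vimentin-high rule apart from having over 20% mitochondrial UMIs were few, and 10 of 19 in GPH, 8 of 17 in G, 7 of 18 in PH and 1 of 1 in control passed the mitotic threshold. The Cd3e counts in mitotic cells, at 32.6 CPM in GPH, 13.9 in G, 10.1 in PH and 6.16 in control, came without Cd3d in GPH, where Cd3d was at 0, against 7.88 CPM in G, 2.42 in PH and 3.19 in control.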
